A study of Mus musculus with 18 samples.

Results

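The phase II conjugation enzymes were followed here in mouse liver after interleukin-1β (IL-1β). All genes whose symbol begins with Ugt1 to Ugt3, with Sult and a number, or with Gst and one of the letters a, k, m, o, p, t or z were taken, which gave 53 of the 21018 genes listed in at least 1 of the 3 gene tables. They are 19 Ugt genes, 12 Sult genes and 22 Gst genes. Of these, 47 were listed in the Pico table, 49 in the V4 table, 52 in the TruSeq table and 45 in all 3. Male C57/B6J mice of 12 weeks were given IL-1β at 20 µg/kg, or saline alone, and livers were taken 4 hours later. There were 3 IL-1β mice (named ILB_9579, ILB_9582 and ILB_9583) and 3 saline mice (UNT_9574, UNT_9575 and UNT_9576). RNA of the whole liver of each mouse was made into a library with each of 3 kits, which gave 18 libraries. Pico is a stranded total RNA kit with ribosomal depletion that took 1.7 to 2.6 ng of RNA, V4 is an unstranded poly(A) kit that took 0.8 to 1.3 ng, and TruSeq, stranded and poly(A)-selected, took 200 ng. Read length was 150 bp for Pico and V4 and 125 bp for TruSeq, which was run on another sequencer. The paper credits the TruSeq libraries to an earlier study. Against TruSeq, kit, RNA amount, sequencer, read length and study cannot be told apart. Between Pico and V4, kit and RNA amount cannot be told apart. Values below are listed in the order of the mouse numbers given here.

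Phase II enzymes attach a water-soluble group to a drug, hormone or waste product so that it can leave the cell in bile or urine. UDP-glucuronosyltransferases (Ugt) add a sugar acid, sulfotransferases (Sult) add sulfate, and glutathione S-transferases (Gst) add glutathione to reactive compounds. The hepatocyte is their main site in liver, and infection and inflammation are known to lower the output of many drug-metabolizing genes there. The Ugt1a genes share a set of common 3′ exons behind alternative first exons, whereas Ugt2, Ugt3, Sult and Gst genes are separate transcription units that often lie in clusters of close relatives.

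Promoters were available for 44 of the 53 genes in RefSeq (GRCm38.p6, a later build than the mm9 of the counts), each running from 250 bases before to 50 bases after the annotated start. They were searched on both strands for the antioxidant response element core (TGACNNNGC), the xenobiotic response element core (GCGTG), a C/EBP motif (TTNNGCAA) and an HNF1 half-site (GTTAAT). At least 1 match was found in 3, 10, 8 and 9 of the 44 genes, against 12.4%, 32.4%, 10.8% and 7.1% of all 32851 RefSeq promoters of this length. A gene with more than 1 promoter was counted if any of them matched. The share over RefSeq is per promoter, so the values are not strictly comparable. The HNF1 half-site was found in 6 of 17 Ugt genes. Among genes listed in all 3 gene tables, promoters were available for 7 that fell in every kit and 19 that fell in none. These motifs, in the same order, were found in 0, 1, 3 and 2 of the 7 and in 2, 5, 2 and 2 of the 19. A link between motif and response was not tested. The promoters of Ugt2b5, Ugt2b37 and Ugt2b38 are shown because Ugt2b5 fell in every kit while its closest relatives passed the test in none, those of Ugt2a3 and Sult1d1 because both genes fell in every kit under both scalings used, and those of Gsta3 and Gstm1 because they are among the most abundant Gst transcripts. Ugt2b34 also fell in every kit under both scalings, but its promoter held no match and is not shown. Gstt2, the other such gene, had no promoter available. Each promoter shown is written 5′ to 3′ on the strand of its gene, with matches in capitals. Positions are chr5:87140291-87140590, minus strand for Ugt2b5, chr5:87254739-87255038, minus strand for Ugt2b37, chr5:87424154-87424453, minus strand for Ugt2b38, chr5:87337146-87337445, minus strand for Ugt2a3, chr5:87568957-87569256, minus strand for Sult1d1, chr1:21240335-21240634, plus strand for Gsta3 and chr3:108017769-108018068, minus strand for the first of 2 starts of Gstm1.
Ugt2b5: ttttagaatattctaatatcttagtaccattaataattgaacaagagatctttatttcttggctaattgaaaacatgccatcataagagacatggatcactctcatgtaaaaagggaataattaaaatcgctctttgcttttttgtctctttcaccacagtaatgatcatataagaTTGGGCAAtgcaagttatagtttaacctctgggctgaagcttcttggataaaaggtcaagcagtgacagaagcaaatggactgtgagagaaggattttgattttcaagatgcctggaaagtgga
Ugt2b37: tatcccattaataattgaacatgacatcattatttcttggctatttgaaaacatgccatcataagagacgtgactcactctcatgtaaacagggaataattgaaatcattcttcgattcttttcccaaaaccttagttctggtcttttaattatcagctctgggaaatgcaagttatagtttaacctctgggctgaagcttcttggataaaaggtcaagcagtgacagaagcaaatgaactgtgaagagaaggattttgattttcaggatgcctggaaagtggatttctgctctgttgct
Ugt2b38: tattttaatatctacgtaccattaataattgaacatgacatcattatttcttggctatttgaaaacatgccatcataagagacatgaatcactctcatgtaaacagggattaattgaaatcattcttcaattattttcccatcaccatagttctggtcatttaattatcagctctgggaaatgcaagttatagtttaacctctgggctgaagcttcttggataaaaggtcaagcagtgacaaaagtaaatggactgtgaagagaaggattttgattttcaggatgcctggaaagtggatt
Ugt2a3: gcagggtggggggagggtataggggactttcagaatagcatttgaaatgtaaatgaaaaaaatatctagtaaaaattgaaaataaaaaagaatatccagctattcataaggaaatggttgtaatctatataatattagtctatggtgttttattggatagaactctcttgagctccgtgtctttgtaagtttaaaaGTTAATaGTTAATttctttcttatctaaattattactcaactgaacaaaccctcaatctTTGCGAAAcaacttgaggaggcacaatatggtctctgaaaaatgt
Sult1d1: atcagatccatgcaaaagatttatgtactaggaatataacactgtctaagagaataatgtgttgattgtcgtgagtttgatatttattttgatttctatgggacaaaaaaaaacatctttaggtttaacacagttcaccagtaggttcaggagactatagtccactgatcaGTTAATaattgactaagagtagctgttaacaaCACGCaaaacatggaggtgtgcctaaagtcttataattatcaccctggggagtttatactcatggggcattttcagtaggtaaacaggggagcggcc
Gsta3: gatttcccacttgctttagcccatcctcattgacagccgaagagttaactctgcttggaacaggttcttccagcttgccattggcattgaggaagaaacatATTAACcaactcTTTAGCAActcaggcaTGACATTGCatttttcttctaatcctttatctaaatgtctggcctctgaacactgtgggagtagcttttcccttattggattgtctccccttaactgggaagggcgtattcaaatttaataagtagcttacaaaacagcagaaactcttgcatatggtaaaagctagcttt
Gstm1: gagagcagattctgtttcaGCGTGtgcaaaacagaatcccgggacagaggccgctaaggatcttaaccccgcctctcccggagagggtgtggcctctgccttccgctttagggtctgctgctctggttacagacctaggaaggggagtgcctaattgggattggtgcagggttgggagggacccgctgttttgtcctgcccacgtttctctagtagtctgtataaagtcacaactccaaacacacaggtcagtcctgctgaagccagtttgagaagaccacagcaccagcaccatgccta

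The capitals are the C/EBP motif in Ugt2b5, from position -74 relative to the start, 2 HNF1 half-sites at -54 and -47 and a C/EBP motif at 6 (read on the other strand) in Ugt2a3, and an HNF1 half-site at -79 and the xenobiotic core at -47 (other strand) in Sult1d1. In Gsta3 they are an HNF1 half-site at -149 (read on the other strand), a C/EBP motif at -137 and the antioxidant core at -121, and in Gstm1 they are the xenobiotic core at -231. The Ugt2b37 and Ugt2b38 promoters held no match and were identical at 273 of 286 aligned bases (95.5%). Ugt2b5 was identical to Ugt2b38 at 261 of 290 aligned bases (90.0%) and to Ugt2b37 at 247 of 276 (89.5%).

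Total gene counts per library were 4024632 to 4134070 (Pico), 12013453 to 12352473 (V4) and 12348864 to 12858237 (TruSeq). The liver response to IL-1β was present in the mice labelled as treated. Of 10 response genes, 9 rose in TruSeq, 9 in Pico and 8 in V4, and Cyp7a1, the 1 gene of the list known to be repressed, fell in each. Hepatocyte markers were abundant in every library, with a summed level over 6 genes of 39579 to 105290 CPM, which are counts scaled to one common library total. The labels give 1 sample per mouse and kit, so the spread between mice was measured with 3 mice per group, and the 3 kits are repeat measurements of the same 6 livers.

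A gene is said to have risen or fallen where limma-voom, fitted over the whole gene table of a kit, gave an adjusted p (Benjamini-Hochberg) of at most 0.05. Log2 fold changes are IL-1β minus saline, ± SE with 3 mice a group. After IL-1β the conjugation genes fell or did not pass the test, and none rose in any kit when counts were scaled by library totals. In Pico 16 of 47 fell, against 10.8% of the 18108 genes tested. In V4 9 of 49 fell (background 7.41% of 18051), and in TruSeq 23 of 52 fell (background 21.8% of 19424). The count of conjugation genes that rose was 0 in limma-voom in all 3 kits, against 6.78%, 3.6% and 12.3% of all genes. At an unadjusted p under 0.05, limma-voom with library totals had 1 higher conjugation gene for Pico, 0 for V4 and 1 for TruSeq. These counts differed between fits. By kit in that order, edgeR had 1, 4 and 3 such genes and DESeq2 had 1, 4 and 1. After adjustment, DESeq2 called 0 conjugation genes higher in each kit, and edgeR called 1 in Pico (Ugt2b38) and 0 in the others. Over all genes, DESeq2 called 1544 (Pico), 1125 (V4) and 2973 (TruSeq) higher, and edgeR called 1819, 930 and 3198. The median log2 fold change of the genes listed was -0.50 (Pico), -0.50 (V4) and -0.50 (TruSeq), against -0.12, -0.22 and -0.17 over all genes. With genes at 0 in a group set to the bound from a floor of 3 counts over the group, and genes at or under it in both groups left out, these medians were -0.48, -0.45 and -0.46. At least 10 counts in 3 libraries were reached by 40 conjugation genes in TruSeq and by 39 in either other kit. With only such genes tested, 15 conjugation genes fell in Pico, 11 in V4 and 23 in TruSeq. Of all genes so tested, 2138 of 11318, 1422 of 11821 and 4197 of 12755 fell.

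**Figure D1:**
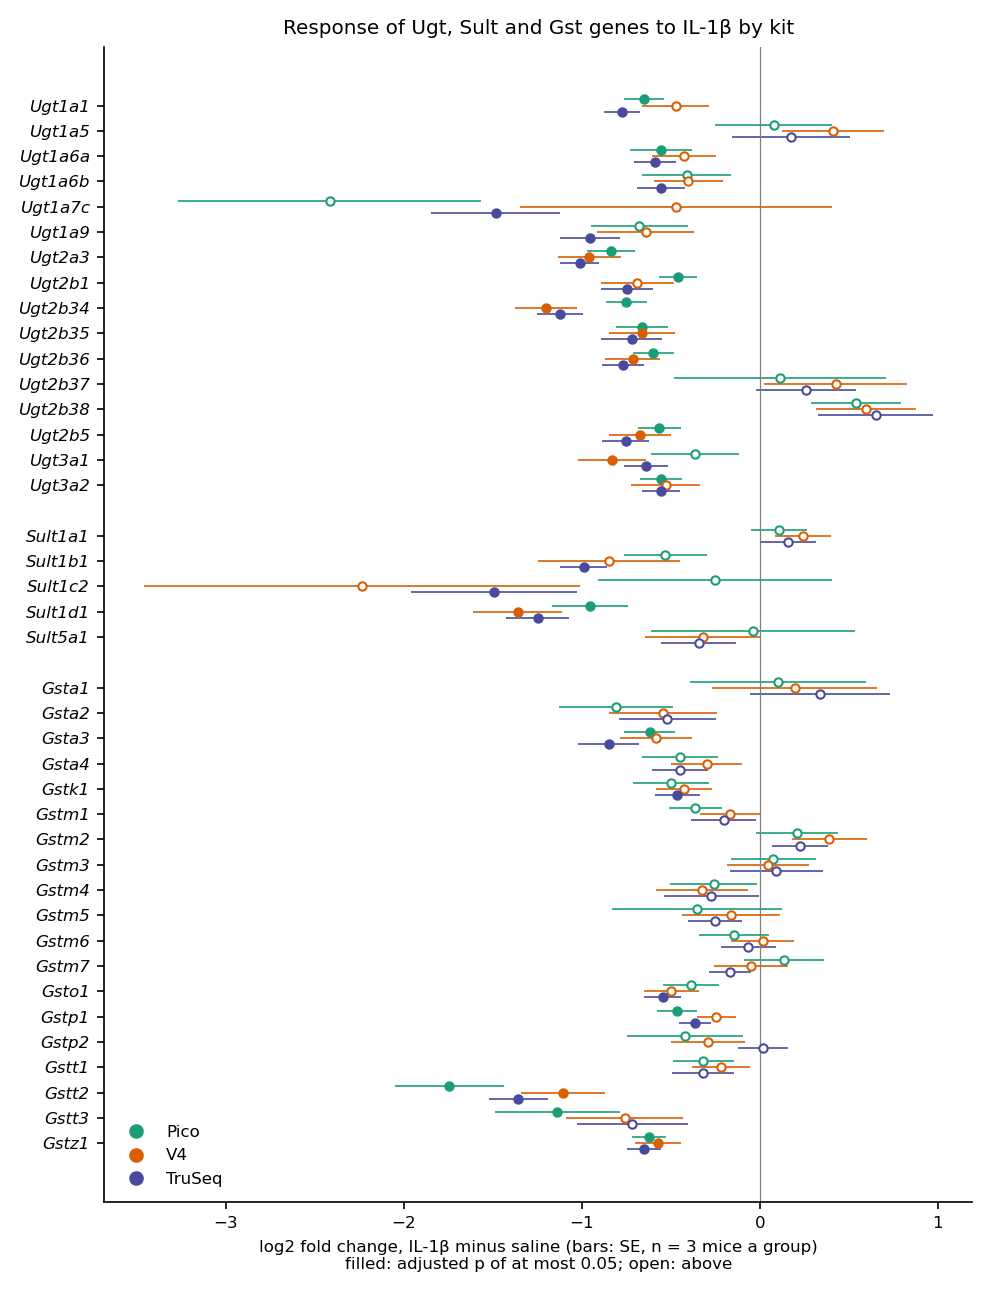
Log2 fold change (IL-1β minus saline, limma-voom with library totals) on the x axis for the 40 conjugation genes with at least 10 counts in 3 TruSeq libraries, by kit, with the SE as bar (n = 3 mice a group) and filled points for an adjusted p of at most 0.05. Most Ugt genes lie left of 0 in all 3 kits, Ugt2b37 and Ugt2b38 lie right of 0, and the Gstm genes are open points around 0.

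The scaling mattered for the number of calls. TMM factors, which centre the bulk of genes, brought the median over all genes to 0.016 (Pico), -0.056 (V4) and -0.015 (TruSeq). The share of all calls that were higher then went from 36.0% to 50.9% (TruSeq), from 38.6% to 52.9% (Pico) and from 32.7% to 49.7% (V4). Under TMM, 14 conjugation genes fell in Pico (background 8.16%), 4 in V4 (4.84%) and 20 in TruSeq (16.1%). The number that rose was 0 in Pico (background 9.16%), 0 in V4 (4.79%) and 1 in TruSeq (16.7%). By kit in that order, 1, 3 and 4 conjugation genes were higher under TMM at an unadjusted p under 0.05 (limma-voom). The median of the conjugation genes under TMM was -0.36 (Pico), -0.33 (V4) and -0.34 (TruSeq).

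A group of 8 genes fell in all 3 kits, namely Ugt2a3, Ugt2b5, Ugt2b34, Ugt2b35, Ugt2b36, Sult1d1, Gstt2 and Gstz1. They are 8 of the 45 conjugation genes listed in all 3 tables, against 5.35% of the 16184 genes tested in all 3. Under TMM 4 of the 45 fell in all 3 kits (Ugt2a3, Ugt2b34, Sult1d1 and Gstt2), against 3.44%. Because the kits share the same livers, a call in all 3 shows repeatability of the measurement and is not 3 independent experiments.

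By family, the largest share of genes that fell was among the glucuronidation genes in each kit. Of the Ugt genes, 10 of 19 fell (52.6%) in Pico, 6 of 18 (33.3%) in V4 and 13 of 19 (68.4%) in TruSeq, against 10.8%, 7.41% and 21.8% of all genes, with medians of -0.60, -0.59 and -0.72. Of the Sult genes, 1 of 8 (12.5%), 1 of 11 (9.09%) and 3 of 11 (27.3%) fell, shares close to those of all genes. Only 4, 5 and 5 Sult genes (Pico, V4 and TruSeq) reached at least 10 counts in 3 libraries, against 16, 15 and 16 Ugt genes. With only such genes tested, 1, 1 and 3 Sult genes and 9, 7 and 13 Ugt genes fell, so the Sult shares depend on detection. Of the Gst genes, 5 of 20 (25%), 2 of 20 (10%) and 7 of 22 (31.8%) fell, and the V4 share lay close to that of all genes. With at least 10 counts in 3 libraries required, 5, 3 and 7 of 19 Gst genes fell. Of all genes so tested, 2138 of 11318 (Pico), 1422 of 11821 (V4) and 4197 of 12755 (TruSeq) fell. The TruSeq share of the Gst genes then lay close to that of all genes too. Under TMM, 9 of 19 (Pico), 2 of 18 (V4) and 13 of 19 (TruSeq) Ugt genes fell, with medians of -0.47, -0.42 and -0.56. Of the Sult genes, 1 of 8, 1 of 11 and 2 of 11 then fell, and of the Gst genes 4 of 20, 1 of 20 and 5 of 22. The shares over all genes under TMM were 8.16%, 4.84% and 16.1%. The lead of the Ugt genes in V4 then rested on 2 calls. The difference between families was not tested. Summed over the Ugt genes listed, the share of all counts in TruSeq was 0.264% to 0.337% in the IL-1β mice and 0.479% to 0.555% in the saline mice. In Pico it was 0.173% to 0.218% against 0.288% to 0.299%, and in V4 0.315% to 0.376% against 0.423% to 0.629%. The groups did not overlap in any kit. The summed Gst share was 0.305% to 0.433% against 0.499% to 0.566% in TruSeq, also without overlap, and the summed Sult share was 0.0322% to 0.0369% against 0.0332% to 0.0490%, with overlap. In these whole-liver samples, fewer hepatocytes and less RNA per hepatocyte cannot be told apart.

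Among the UDP-glucuronosyltransferases, the Ugt2 genes carried most of the counts. Ugt2b34 gave 4607, 4460 and 3252 counts in the IL-1β mice and 9138, 9057 and 9134 in the saline mice in TruSeq. In Pico it gave 1297, 1246 and 1001 counts in the IL-1β mice and 1847, 1942 and 2268 in the saline mice, and in V4 1209, 1216 and 1073 counts in the IL-1β mice and 3050, 2852 and 2236 in the saline mice. Every IL-1β mouse lay below every saline mouse in each kit, and the 3 saline mice were within a narrow band in TruSeq. Its log2 fold change was -0.75 ± 0.11 (adjusted p = 0.000177) in Pico, -1.20 ± 0.17 (adjusted p = 0.00173) in V4 and -1.12 ± 0.13 (adjusted p = 0.000171) in TruSeq. Ugt2a3 gave 2371, 2096 and 2076 counts in the IL-1β mice and 3959, 4697 and 4993 in the saline mice in TruSeq, which left 49.4% of the saline level. In Pico the counts were 626, 484 and 550 against 868, 987 and 1177, and in V4 they were 1993, 2044 and 2225 against 4362, 4808 and 3227. The groups were again separate in each kit, with log2 fold changes of -0.84 ± 0.13 (adjusted p = 0.000315) in Pico, -0.96 ± 0.18 (adjusted p = 0.00642) in V4 and -1.01 ± 0.11 (adjusted p = 0.000114) in TruSeq.

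Ugt2b5 was the most abundant Ugt gene per length in each kit. It gave 9484, 9105 and 6839 counts in the IL-1β mice and 16126, 14350 and 13401 in the saline mice in TruSeq, 1831, 1617 and 1216 against 2442, 2180 and 2315 in Pico, and 16939, 19099 and 14256 against 32082, 28804 and 20589 in V4. Groups did not overlap, with log2 fold changes of -0.56 ± 0.12 (adjusted p = 0.00336) in Pico, -0.67 ± 0.18 (adjusted p = 0.0331) in V4 and -0.75 ± 0.13 (adjusted p = 0.00201) in TruSeq. In V4 the adjusted p of Ugt2b5 was 0.126 under TMM, 0.0857 with edgeR, 0.0736 with DESeq2 and up to 0.152 when any 1 mouse but UNT_9576 was left out, and in Pico it was up to 0.0563 without UNT_9574 or ILB_9582. Ugt2b36 gave 6623, 6474 and 5166 counts in the IL-1β mice and 11348, 11014 and 9589 in the saline mice in TruSeq. Its counts were 1002, 1036 and 769 against 1439, 1439 and 1418 in Pico and 7348, 8147 and 6560 against 13729, 12912 and 9955 in V4. All IL-1β values were below all saline values, with log2 fold changes of -0.60 ± 0.11 (adjusted p = 0.00144) in Pico, -0.72 ± 0.16 (adjusted p = 0.0147) in V4 and -0.77 ± 0.12 (adjusted p = 0.000904) in TruSeq. In V4 the adjusted p of Ugt2b36 was 0.065 under TMM and up to 0.0816 without UNT_9574, UNT_9575, ILB_9579 or ILB_9583.

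Ugt2b35 gave 2578, 2713 and 1760 counts in the IL-1β mice and 4563, 3384 and 3903 in the saline mice in TruSeq. In Pico the counts were 559, 555 and 407 against 920, 692 and 831, and in V4 993, 1001 and 941 against 1954, 1354 and 1428. Saline mouse UNT_9574 was the highest in all 3 kits, and the groups did not overlap. Log2 fold changes were -0.66 ± 0.15 (adjusted p = 0.00443) in Pico, -0.66 ± 0.18 (adjusted p = 0.0425) in V4 and -0.72 ± 0.17 (adjusted p = 0.00973) in TruSeq. This call was lost in each kit when certain single mice were left out (UNT_9574 or ILB_9583 in Pico, any but UNT_9576 in V4, UNT_9574 or UNT_9576 in TruSeq), with adjusted p of up to 0.0553 (Pico), 0.135 (V4) and 0.0699 (TruSeq), and in V4 also under TMM (0.145), edgeR (0.0977) and DESeq2 (0.0738). Ugt2b1 gave 7212, 5748 and 5187 counts in the IL-1β mice and 11398, 11289 and 8675 in the saline mice in TruSeq. It gave 1441, 1244 and 1127 against 1821, 1888 and 1624 in Pico and 4174, 3281 and 3414 against 6963, 6738 and 4240 in V4, where saline mouse UNT_9576 stood closest to the IL-1β mice. The log2 fold change of Ugt2b1 was -0.46 ± 0.11 (adjusted p = 0.00603) in Pico, -0.69 ± 0.20 (adjusted p = 0.0534) in V4 and -0.75 ± 0.15 (adjusted p = 0.00347) in TruSeq, so it fell in Pico and TruSeq. In Pico its adjusted p was up to 0.0692 without UNT_9574, ILB_9582 or ILB_9583, and in V4 it was 0.00644 without UNT_9576.

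Ugt2b38 and Ugt2b37 did not pass the test in any kit. Ugt2b38 gave 1133, 994 and 1377 counts in the IL-1β mice and 1257, 831 and 421 in the saline mice in TruSeq. In Pico the counts were 289, 271 and 353 against 329, 234 and 124, and in V4 1394, 1456 and 2075 against 1644, 1059 and 710. The saline mice ranged widely, with UNT_9574 highest and UNT_9576 lowest in every kit, and the groups overlapped. Its log2 fold change was 0.54 ± 0.25 (adjusted p = 0.168) in Pico, 0.60 ± 0.28 (adjusted p = 0.217) in V4 and 0.65 ± 0.32 (adjusted p = 0.156) in TruSeq, and without mouse UNT_9576 it was 0.15 (Pico), 0.29 (V4) and 0.22 (TruSeq). Without mouse UNT_9574 it was called higher in TruSeq (1.02, adjusted p = 0.0485, limma-voom). Ugt2b37 was lower in abundance, with 99, 80 and 105 counts in the IL-1β mice and 103, 105 and 49 in the saline mice in TruSeq and a log2 fold change of 0.26 ± 0.28 (adjusted p = 0.527), and overlapped in every kit. The 95% interval of the change in TruSeq was -1.05 to -0.45 for Ugt2b5, -0.068 to 1.37 for Ugt2b38 and -0.37 to 0.89 for Ugt2b37, the 3 genes with closely related promoters.

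The pair was also compared within each mouse, a comparison chosen after its values were seen. Ugt2b38 counts as a percent of Ugt2b5 counts were 11.9%, 10.9% and 20.1% in the IL-1β mice and 7.79%, 5.79% and 3.14% in the saline mice in TruSeq. In Pico they were 15.8%, 16.8% and 29.0% against 13.5%, 10.7% and 5.36%, and in V4 8.23%, 7.62% and 14.6% against 5.12%, 3.68% and 3.45%. The groups did not overlap in any kit, and the exact permutation test (two-sided) gave p = 0.1 in each, which is the smallest p that 3 mice against 3 can give. Ugt2b5, the denominator, itself fell in every kit without overlap, while the counts of Ugt2b38 alone overlapped. The ratio therefore cannot tell a rise of Ugt2b38 from the fall of Ugt2b5, and the same holds for the ratio of Ugt2b37. Ugt2b37 as a percent of Ugt2b5 overlapped in Pico, at 0.874%, 0.742% and 0.905% in the IL-1β mice and 0.942%, 0.688% and 0.216% in the saline mice (exact permutation p = 0.5). It did not overlap in V4 (0.545% to 0.95% against 0.253% to 0.433%) or in TruSeq (0.879% to 1.54% against 0.366% to 0.732%), with exact permutation p = 0.1 in both. Of the 125-base stretches of the annotated transcripts, 21.7% of those in Ugt2b38 also occur in Ugt2b5, so part of the reads of either gene cannot be assigned to 1 of them by sequence.

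The Ugt2 genes lie with Sult1b1, Sult1d1 and Sult1e1 in 1 cluster of 11 conjugation genes on chromosome 5 (mm9, 87318792 to 88020636, 702 kb). Of these 11 genes, 7 fell (Pico), 6 (V4) and 8 (TruSeq), against 10.8%, 7.41% and 21.8% of all genes. With at least 10 counts in 3 libraries required, 2138 of 11318 (Pico), 1422 of 11821 (V4) and 4197 of 12755 (TruSeq) of all genes fell. Under TMM only Ugt2a3, Ugt2b34 and Sult1d1 of the cluster fell in V4, while the cluster calls in Pico and TruSeq were the same. The cluster held 6 of the 8 genes that fell in all 3 kits, and the other 2 were among the 34 conjugation genes elsewhere that all 3 tables list. Over all genes tested in all 3 kits, 5.35% fell in each. Whether a place in the cluster is tied to the response was not tested. Genes that passed the test lay next to genes that did not. Ugt2b37 and Ugt2b38, with TruSeq log2 fold changes of 0.26 and 0.65, flank Ugt2a3, which had -1.01.

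**Figure D2:**
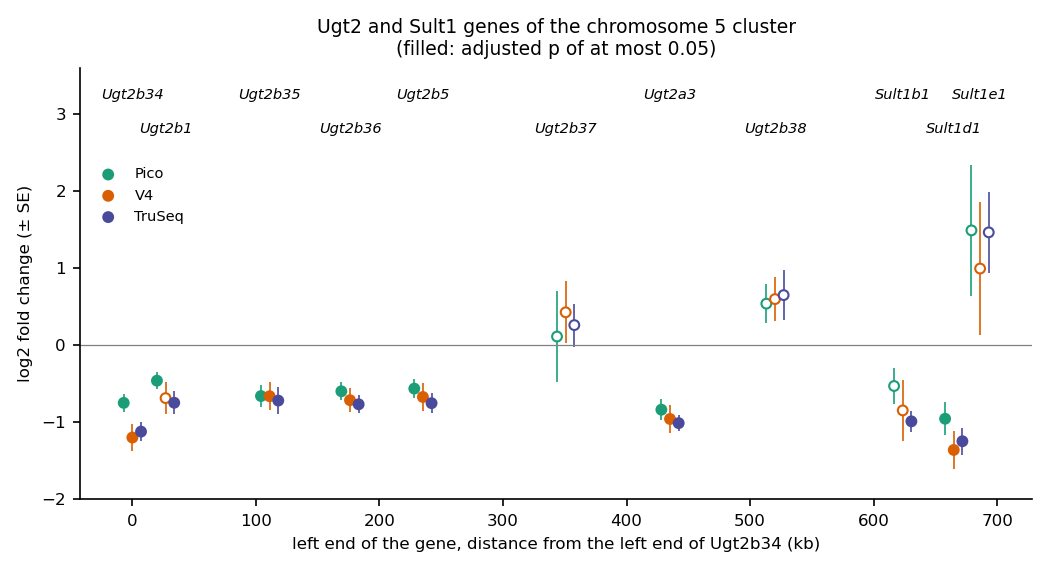
Log2 fold change after IL-1β (y axis, ± SE, n = 3 mice a group) of the 11 conjugation genes of the chromosome 5 cluster against the distance of each gene's left end from that of Ugt2b34 (x axis, kb), by kit, with filled points for an adjusted p of at most 0.05. Ugt2b37, Ugt2b38 and Sult1e1 lie above 0 with open points, between and beside genes that lie below 0.

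The Ugt1a genes lie on chromosome 1 and share 3′ exons, so that 56.7% to 84.8% of the 125-base stretches of each also occur in other Ugt1a transcripts, and the split of reads between them is uncertain. Of these genes 3 of 9 fell (Pico), 0 of 8 (V4) and 5 of 9 (TruSeq), against 10.8%, 7.41% and 21.8% of all genes. For V4, edgeR and DESeq2 also called 0 of these genes, and 3 had an unadjusted p under 0.05 in limma-voom, as had 25.0% of all genes. Ugt1a1, the transferase that conjugates bilirubin, gave 1765, 2093 and 1879 counts in the IL-1β mice and 3295, 3600 and 3211 in the saline mice in TruSeq, without overlap. Its log2 fold change was -0.65 ± 0.11 (adjusted p = 0.000681) in Pico, -0.47 ± 0.19 (adjusted p = 0.142) in V4 and -0.78 ± 0.099 (adjusted p = 0.000326) in TruSeq. RP23-324B17.1 is annotated on the other strand over 394 to 922 exon bases of each Ugt1a gene, and in the unstranded V4 libraries its reads cannot be told apart from theirs. Ugt1a6a and Ugt1a9, which conjugate phenols, had TruSeq log2 fold changes of -0.59 ± 0.12 (adjusted p = 0.0039) and -0.96 ± 0.17 (adjusted p = 0.00194). Ugt1a6a also fell in Pico (-0.55, adjusted p = 0.0373), a call lost under TMM (0.101), edgeR (0.0594) and DESeq2 (0.102) and, in limma-voom, when any 1 mouse but UNT_9576 was left out (up to 0.175). Ugt1a6b fell in TruSeq at -0.56 ± 0.13 (adjusted p = 0.0101, and 0.0519 without UNT_9576), with -0.41 ± 0.25 (adjusted p = 0.305) in Pico. Ugt1a5 overlapped between groups in each kit, at 0.18 ± 0.33 (adjusted p = 0.715) in TruSeq. Of the rare first exons, Ugt1a7c fell in TruSeq at 9, 7 and 5 counts against 19, 27 and 17, and Ugt1a8 fell in Pico at 0, 1 and 1 counts against 8, 19 and 9. The Ugt1a8 total of 2 counts was 5.56% of the saline total of 36 (exact 95% interval 0.648% to 21.6%, counting error only), and its adjusted p was 0.0513 without ILB_9579. In TruSeq it had 0 counts in the IL-1β mice and 3, 1 and 0 in the saline mice, and was called lower there without UNT_9576 (adjusted p = 0.0414). Ugt1a2 and Ugt1a10 had at most 20 counts in any library and did not pass the test in any kit.

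Ugt3a1 and Ugt3a2, whose products use other sugars than the glucuronic acid of the main families, lie side by side on chromosome 15. Ugt3a2 fell in Pico (-0.56 ± 0.12) and TruSeq (-0.56 ± 0.10) at adjusted p of 0.00302 and 0.00278. It had -0.53 ± 0.19 (adjusted p = 0.109, and 0.0193 without UNT_9576) in V4. Ugt3a1 fell in V4 (-0.83 ± 0.19) and TruSeq (-0.64 ± 0.13) at adjusted p of 0.0198 and 0.00356. The V4 call of Ugt3a1 was lost under TMM (adjusted p = 0.0631) and without UNT_9574, UNT_9575, ILB_9579 or ILB_9583 (up to 0.0847), and kept with edgeR and DESeq2. It had -0.37 ± 0.25 (adjusted p = 0.366) in Pico, where it reached at most 172 counts.

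Among the sulfotransferases, Sult1d1 fell and Sult1a1 did not pass the test. Sult1d1 gave 521, 725 and 825 counts in the IL-1β mice and 1379, 1713 and 1938 in the saline mice in TruSeq. In Pico the counts were 129, 159 and 264 against 299, 349 and 402, and in V4 256, 314 and 431 against 649, 893 and 1028. Within each group the order of the mice was the same in every kit, with ILB_9579 lowest and ILB_9583 highest of the IL-1β mice and UNT_9574 lowest and UNT_9576 highest of the saline mice, and the groups did not overlap. The log2 fold change was -0.96 ± 0.21 (adjusted p = 0.00456) in Pico, -1.36 ± 0.25 (adjusted p = 0.00637) in V4 and -1.25 ± 0.18 (adjusted p = 0.000569) in TruSeq. In Pico the adjusted p was up to 0.0912 without UNT_9576, ILB_9579 or ILB_9582. Sult1a1, the main phenol sulfotransferase, was the most abundant Sult gene per length and gave 3232, 3574 and 3471 counts in the IL-1β mice and 2413, 3305 and 3939 in the saline mice in TruSeq. In Pico it gave 665, 813 and 854 against 600, 665 and 977 and in V4 3077, 3769 and 3930 against 2606, 3285 and 3249. The groups overlapped in each kit, with log2 fold changes of 0.11 ± 0.16 (adjusted p = 0.692) in Pico, 0.24 ± 0.16 (adjusted p = 0.39) in V4 and 0.16 ± 0.15 (adjusted p = 0.491) in TruSeq. Its 95% interval in TruSeq was -0.19 to 0.51, and that of Sult1d1 was -1.64 to -0.85. Sult1a1 overlaps Ccdc101 on the other strand over 61 exon bases, and V4 reads of the 2 genes cannot be told apart there.

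Sult1b1, which sulfates thyroid hormones, fell in TruSeq with 150, 150 and 127 counts in the IL-1β mice and 270, 327 and 279 in the saline mice, a log2 fold change of -0.99 ± 0.13 (adjusted p = 0.00045). Its values in Pico and V4 were -0.53 ± 0.23 (adjusted p = 0.14) and -0.85 ± 0.40 (adjusted p = 0.214), and in V4 saline mouse UNT_9576 had 101 counts against 219 and 245 in the other saline mice. Without UNT_9576 it was called lower in V4 (-1.26, adjusted p = 0.0215). Sult1c2 fell in TruSeq at 14, 12 and 7 counts against 17, 46 and 40 (adjusted p = 0.0329, 0.0532 under TMM and up to 0.144 when any 1 mouse but UNT_9574 was left out). Sult1e1, the estrogen sulfotransferase, had 4, 8 and 8 counts in the IL-1β mice and 2, 1 and 4 in the saline mice in TruSeq. With library totals its adjusted p in TruSeq was 0.0586 and under TMM 0.0401, which made it the 1 conjugation gene called higher under that scaling. In Pico it had 1, 0 and 3 counts against 0 in each saline mouse. Sult5a1 passed no test, at -0.34 ± 0.21 (adjusted p = 0.251) in TruSeq. The Sult2, Sult3 and Sult4 genes, among them the bile acid and steroid sulfotransferases of the Sult2a group, had at most 12 counts in any library, and none passed the test.

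**Figure D3:**
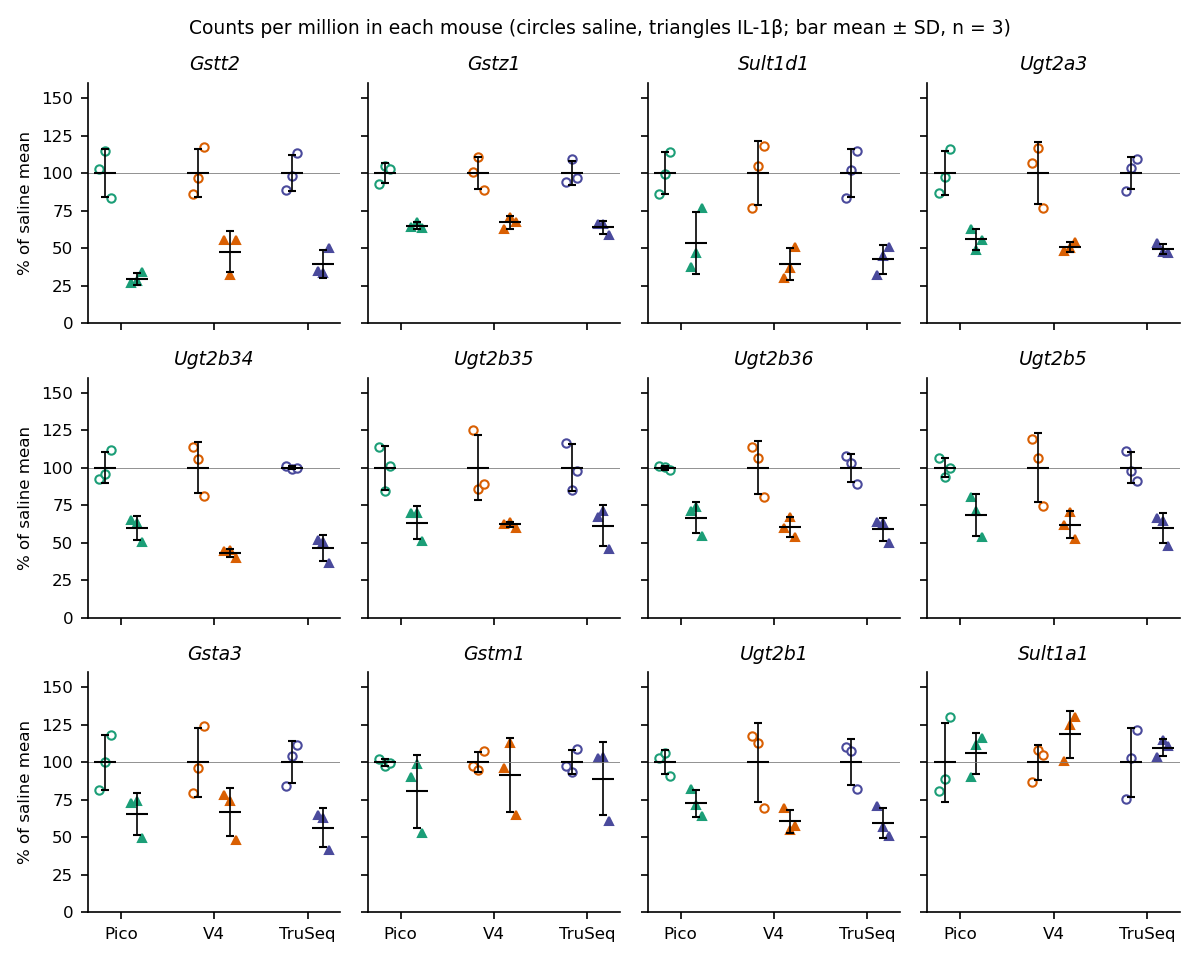
CPM in each mouse as a percent of the saline mean of the same kit (y axis, from 0) for 12 conjugation genes, by kit (x axis), with circles for saline, triangles for IL-1β and a bar for the mean ± SD (n = 3). In the first 8 panels the triangles lie below the circles in every kit, while in Gstm1 and Sult1a1 they overlap.

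Among the glutathione S-transferases, Gstt2 and Gstz1 fell in every kit. Gstt2, a theta-class enzyme, had the largest fall of the Gst genes that passed in all 3 kits, with 184, 175 and 263 counts in the IL-1β mice and 477, 531 and 617 in the saline mice in TruSeq. In Pico the counts were 26, 27 and 33 against 101, 114 and 83, and in V4 733, 414 and 719 against 1116, 1268 and 1563. This left 29.4%, 47.5% and 39.5% of the saline level in Pico, V4 and TruSeq, without overlap. Gstt2 had log2 fold changes of -1.74 ± 0.30 (adjusted p = 0.000646) in Pico, -1.11 ± 0.24 (adjusted p = 0.0131) in V4 and -1.36 ± 0.16 (adjusted p = 0.000246) in TruSeq. In V4 the adjusted p was up to 0.0595 when mouse UNT_9575 or ILB_9582 was left out. Its neighbours on chromosome 10 gave other values. Gstt1 had -0.32 ± 0.17 (adjusted p = 0.195) in TruSeq, and Gstt3 had -0.76 ± 0.33 (adjusted p = 0.176) in V4 and -0.72 ± 0.31 (adjusted p = 0.109) in TruSeq. In Pico Gstt3 passed at -1.14 ± 0.35 (adjusted p = 0.0337) but not under TMM (0.0553), nor when any 1 mouse but UNT_9574 was left out (up to 0.246).

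Gstz1, the zeta-class enzyme that also acts in tyrosine breakdown as maleylacetoacetate isomerase, gave 5549, 5533 and 4918 counts in the IL-1β mice and 8046, 9431 and 8400 in the saline mice in TruSeq. In Pico the counts were 1174, 1238 and 1164 against 1719, 1969 and 1930, and in V4 5949, 6675 and 6363 against 9448, 10408 and 8547. The IL-1β mice were tightly grouped in each kit and all below the saline mice, at 64.9%, 67.1% and 63.7% of the saline level. The log2 fold change was -0.62 ± 0.095 (adjusted p = 0.000191) in Pico, -0.57 ± 0.13 (adjusted p = 0.0181) in V4 and -0.65 ± 0.096 (adjusted p = 0.000714) in TruSeq, and in V4 the adjusted p was 0.104 under TMM, 0.146 with edgeR, 0.0862 with DESeq2 and up to 0.0886 when any 1 mouse but UNT_9576 was left out. Gstz1 overlaps Pomt2 on the other strand over 127 exon bases.

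The alpha class was led by Gsta3, the most abundant Gst gene per length in TruSeq. It gave 12603, 12163 and 8040 counts in the IL-1β mice and 16761, 20901 and 22469 in the saline mice in TruSeq, 2875, 2905 and 1944 against 3245, 4012 and 4767 in Pico and 13809, 13067 and 8505 against 13870, 16927 and 22392 in V4. Groups did not overlap, although IL-1β mouse ILB_9579 and saline mouse UNT_9574 nearly met in V4, and ILB_9583 was the lowest in each kit. The log2 fold change was -0.62 ± 0.14 (adjusted p = 0.00559) in Pico, -0.59 ± 0.20 (adjusted p = 0.0914) in V4 and -0.85 ± 0.17 (adjusted p = 0.00418) in TruSeq, so that Gsta3 fell in Pico and TruSeq. In Pico its adjusted p was up to 0.0847 without UNT_9575, UNT_9576, ILB_9582 or ILB_9583. Gsta1, Gsta2 and Gsta4 did not pass the test over all genes in any kit, with TruSeq log2 fold changes of 0.34, -0.52 and -0.45. With only genes of at least 10 counts in 3 libraries tested, Gsta4 was called lower in TruSeq (adjusted p = 0.0358). Gsta1 is uncertain, since 77.9% of its 125-base stretches also occur in Gsta2, Gm10639 and Gm3776. Among the other classes, Gsto1 fell in TruSeq at -0.55 ± 0.11 (adjusted p = 0.00319), Gstk1 at -0.46 ± 0.13 (adjusted p = 0.0181), and Gstp1 fell in Pico at -0.47 ± 0.11 (adjusted p = 0.00692) and in TruSeq at -0.36 ± 0.092 (adjusted p = 0.0128). The TruSeq calls of Gstk1 and Gstp1 were lost under TMM (adjusted p = 0.0869 and 0.104), edgeR (0.087 and 0.156) and DESeq2 (0.0943 and 0.127). That of Gstk1 was also lost without UNT_9575 or UNT_9576 (up to 0.0773), and the Pico call of Gstp1 without ILB_9579 or ILB_9583 (up to 0.0585). Gstp1 shares 51.7% of its stretches with Gstp2, which passed no test. Gsto2 was called lower in TruSeq at 0 counts in each IL-1β mouse and 1, 1 and 2 in the saline mice, and no fold is given for so few reads. This call was lost with edgeR (adjusted p = 0.141) and without UNT_9576 or any 1 IL-1β mouse (up to 0.0704).

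The mu class passed no test in any kit. Of the 8 Gstm genes (7 listed in V4), 0 fell and 0 rose with limma-voom in Pico, V4 and TruSeq under library totals and under TMM, and edgeR and DESeq2 called 0. At an unadjusted p under 0.05 there was 1 in Pico (Gstm1) and 0 in the other kits, against 28.8% (Pico), 25.0% (V4) and 42.1% (TruSeq) of all genes. Gstm1, the most abundant of them, gave 18645, 18625 and 11070 counts in the IL-1β mice and 17971, 17478 and 20429 in the saline mice in TruSeq. In Pico it gave 5609, 6122 and 3300 against 6445, 6208 and 6354 and in V4 50333, 58486 and 33413 against 50261, 49160 and 56912. In each kit mouse ILB_9583 was the lowest of the 6 mice, while ILB_9579 and ILB_9582 lay within or near the saline range. The log2 fold change was -0.36 ± 0.15 (adjusted p = 0.112) in Pico, -0.17 ± 0.17 (adjusted p = 0.62) in V4 and -0.20 ± 0.18 (adjusted p = 0.457) in TruSeq. Without mouse ILB_9583 it was 0.048 in TruSeq and 0.065 in V4, and Gstm3 was then called higher in TruSeq (0.46, adjusted p = 0.0175, limma-voom). The other Gstm genes with at least 10 counts in 3 libraries had TruSeq log2 fold changes from -0.27 (Gstm4) to 0.23 (Gstm2). The direction of Gstm1 in V4 was not fixed, at -0.17 with library totals and 0.0029 under TMM.

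The low values of mouse ILB_9583 ran through many conjugation genes and all 3 kits. Among the 35 conjugation genes that averaged 20 counts or more in each kit, ILB_9583 was the lowest of the 3 IL-1β mice in all 3 kits for 17 genes (48.6%), ILB_9579 for 2 and ILB_9582 for 0. Over all 8960 genes with such counts the same share was 12.4% for ILB_9583, 8.44% for ILB_9579 and 3.69% for ILB_9582. Saline mice stood low too, with UNT_9574 the lowest of the 3 saline mice in all 3 kits for 9 of the 35 genes (25.7%), UNT_9576 for 6 (17.1%) and UNT_9575 for 4 (11.4%), against 7.48%, 10.7% and 4.35% of all genes. The 17 genes were Gsta2, Gsta3, Gsta4, Gstk1, Gstm1, Gstm3, Gstm4, Gstm6, Gstt1, Gstt3, Ugt1a5, Ugt1a6a, Ugt1a6b, Ugt2b34, Ugt2b35, Ugt2b36 and Ugt2b5. Sult1d1 and Ugt2b38 were instead highest in ILB_9583 in every kit. The summed level of the 10 response genes was highest in ILB_9583 too, at 56675 CPM in TruSeq against 49728 and 49864 in the other IL-1β mice, and the summed level of 9 NRF2 targets outside the families was lowest, at 864.7 against 1109.7 and 1215. Whether either is part of the low conjugation values was not tested. Without mouse ILB_9583, 10 conjugation genes fell in Pico, 4 in V4 and 21 in TruSeq. Calls over all genes dropped too, to 1130 of 17798 (Pico), 626 of 17826 (V4) and 3440 of 19183 (TruSeq). With all mice they were 1951, 1337 and 4232. Leaving out ILB_9582 gave 10 in Pico (1024 over all genes), and single mice other than UNT_9576 left 3 to 5 in V4 (567 to 762 over all genes).

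**Figure D4:**
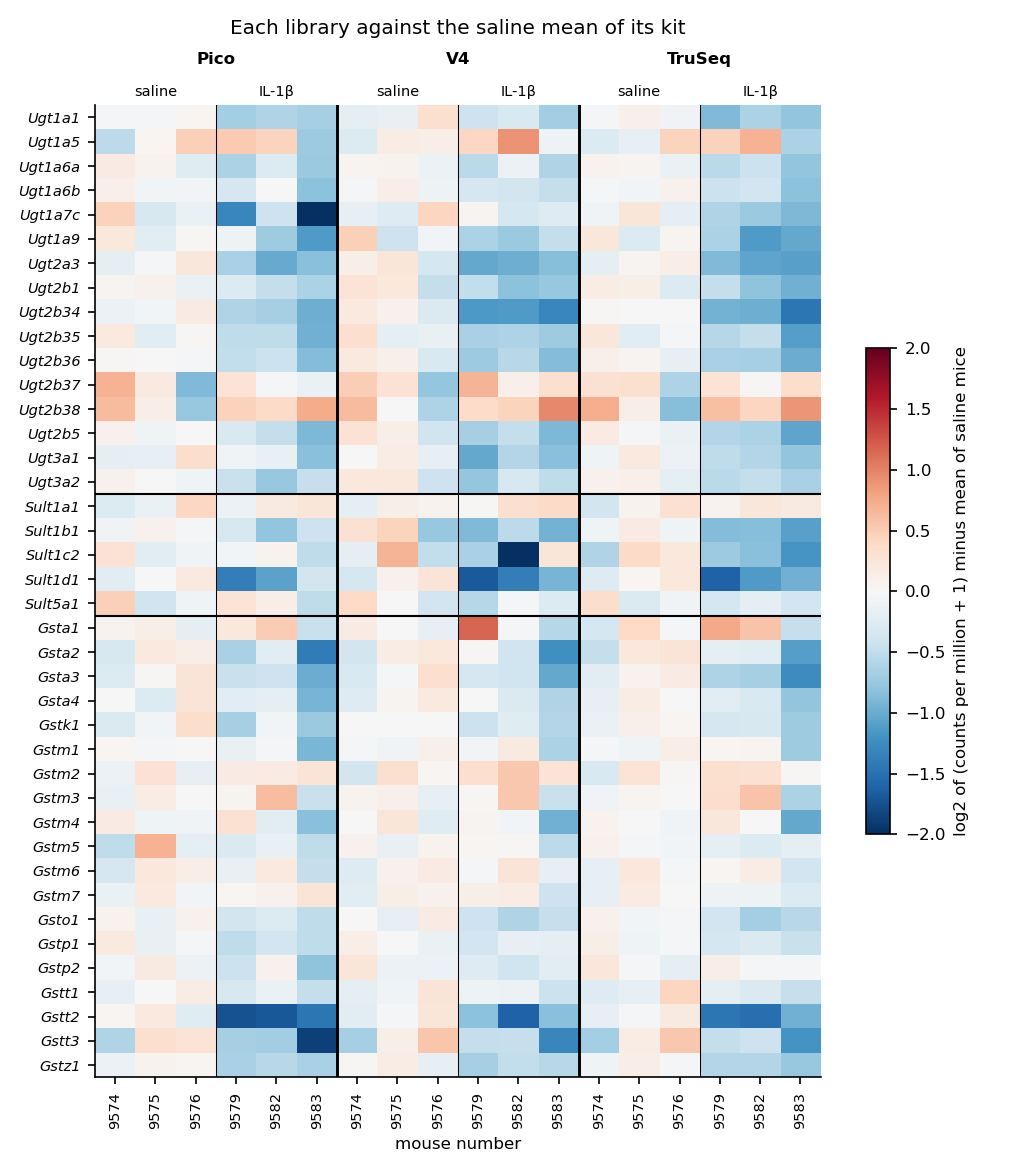
Log2 of (CPM + 1) of each library minus the mean of the 3 saline libraries of its kit (colour, limited to -2 to 2), for the 40 conjugation genes with at least 10 counts in 3 TruSeq libraries (rows, Ugt, Sult and Gst from top to bottom) and the 18 libraries (columns, mouse number). Blue columns under IL-1β repeat between kits, and mouse ILB_9583 is the bluest for most Gsta and Gstm genes.

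In saline livers the order of the genes per length was led by Gst genes. Levels are CPM divided by the annotated exon union in kilobases, given as mean ± SD over 3 mice. In TruSeq Gsta3 had 1127 ± 157, Gstm1 1046 ± 83.5 and Gstp1 1044 ± 80.7, which do not differ beyond their spread. Ugt2b5 followed at 608 ± 62.6, then Gstz1 at 408 ± 32.6 and Ugt2b36 at 405 ± 38.3, which again do not differ beyond their spread, and Ugt2b1 at 318 ± 48.8. Sult1a1, the first of the Sult genes, had 167 ± 38.6, next to Ugt2a3 at 168 ± 18.4 and Ugt2b34 at 165 ± 1.78. The order differed between kits. In Pico Gstm1 led at 1105 ± 25.9, ahead of Gsta3 at 699.7 ± 129, and in V4 Gstp1 led at 4751 ± 441, ahead of Gstm1 at 3074 ± 204. Ugt2b34 had 51.9 ± 8.80 in V4. With the longest transcript as length, Gsta3 had 841.8 in Pico and 1356 in TruSeq.

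**Figure D5:**
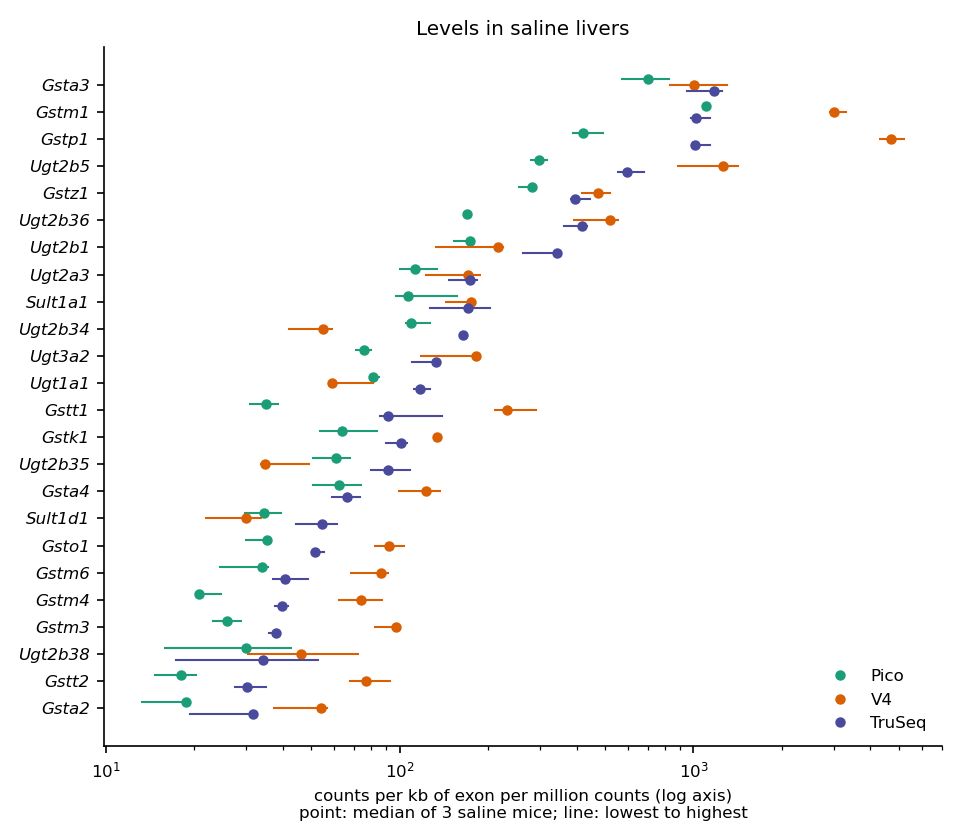
Levels in saline livers of the 24 conjugation genes with the highest TruSeq level (y axis), as CPM per kilobase of exon on a log x axis, by kit, with the median as point and the lowest to highest of 3 mice as line. Gsta3, Gstm1 and Gstp1 are at the top in TruSeq, and the V4 points of Gstm1 and Gstp1 stand to the right of the other kits.

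The response was compared directly between kits by an interaction of kit and treatment. Against TruSeq, 0 of 47 conjugation genes in Pico (background 0% of 17207) and 0 of 48 in V4 (background 0% of 17147) differed in limma-voom, and edgeR and DESeq2 also called 0 conjugation genes. At an unadjusted p under 0.05 there were 1 and 0, against 5.49% and 6.36% of all genes, the 1 being Sult4a1, which had at most 2 counts in any library. With the mouse as a block, which uses that both libraries of a pair hold RNA of the same liver, 0 conjugation genes passed at an adjusted p of at most 0.05 in either comparison, and at an unadjusted p under 0.05 there were 5 of 47 in Pico (Gsta3, Gstm1, Ugt2b1, Ugt2b34 and Ugt2b5) and 1 of 48 in V4 (Gsta3), against 7.43% and 7.37% of all genes. All are abundant genes. Ugt2b34, singled out after its values were seen, had a log2 fold change of -0.75 in Pico and -1.12 in TruSeq. The difference was 0.37 ± 0.18 (95% interval -0.0015 to 0.75, adjusted p = 0.9) without the block and 0.36 ± 0.093 (0.16 to 0.57, adjusted p = 0.517) with it, so the unadjusted interval left out 0 only in the paired fit. With the block Gsta3 differed from TruSeq by 0.22 ± 0.061 in Pico (adjusted p = 0.599) and 0.26 ± 0.089 in V4 (adjusted p = 0.573), and Ugt2b1 by 0.29 ± 0.080 in Pico (adjusted p = 0.599). A missing call does not show that the kits gave the same response.

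The other genes of the pathway were taken from fixed lists, whose counts stand beside those of all genes (TruSeq 21.8% lower and 12.3% higher, Pico 10.8% and 6.78%, V4 7.41% and 3.6%). Of 14 genes that supply sugar, sulfate and glutathione, 4 fell and 2 rose in Pico, 6 fell and 1 rose in V4, and 6 fell and 3 rose in TruSeq. The median log2 fold change of this list was -0.13 (Pico), -0.47 (V4) and -0.26 (TruSeq), against -0.12, -0.22 and -0.17 over all genes. Papss2, which makes the sulfate donor, had a log2 fold change of -1.22 ± 0.14 (adjusted p = 9.88e-06) in Pico, -1.21 ± 0.20 (adjusted p = 0.00386) in V4 and -1.20 ± 0.11 (adjusted p = 4.18e-05) in TruSeq. Slc26a1, a sulfate carrier of the hepatocyte membrane, had -1.37 ± 0.14 (adjusted p = 3.61e-06) in Pico, -1.62 ± 0.27 (adjusted p = 0.00408) in V4 and -1.62 ± 0.11 (adjusted p = 8.7e-06) in TruSeq. In the sugar branch, Ugp2, which makes UDP-glucose, had -0.68 ± 0.11 (adjusted p = 0.000393) in Pico, -1.07 ± 0.15 (adjusted p = 0.00163) in V4 and -1.06 ± 0.092 (adjusted p = 3.62e-05) in TruSeq, while Ugdh, which oxidizes it to the glucuronic acid donor, had 0.54 ± 0.14 (adjusted p = 0.013) in Pico, 0.47 ± 0.16 (adjusted p = 0.0918) in V4 and 0.61 ± 0.12 (adjusted p = 0.00302) in TruSeq. For glutathione, Gclm fell with -0.74 ± 0.11 (adjusted p = 0.000924) in TruSeq, Gclc had 0.24 ± 0.19 (adjusted p = 0.374), and Gsr, which regenerates reduced glutathione, rose with 0.98 ± 0.11 (adjusted p = 0.000185).

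Of 17 other conjugating enzymes, 12 fell and 2 rose in TruSeq, 6 fell and 2 rose in Pico, and 7 fell and 1 rose in V4, with medians of -0.72 (Pico), -0.80 (V4) and -0.84 (TruSeq). Glyat, which adds glycine, had -1.67 ± 0.10 (adjusted p = 6.4e-06) in TruSeq, and Nnmt, which methylates nicotinamide, rose with 1.31 ± 0.17 (adjusted p = 0.000363). The microsomal transferase Mgst1 had 0.003 ± 0.085 (adjusted p = 0.979). Of 6 efflux pumps for conjugates, 4 fell and 1 rose in TruSeq, 3 fell and 1 rose in Pico, and 2 fell in V4, with Abcc2, the canalicular pump for glucuronides and glutathione conjugates, at -1.31 ± 0.099 (adjusted p = 1.56e-07) in Pico, -1.28 ± 0.20 (adjusted p = 0.00282) in V4 and -1.26 ± 0.12 (adjusted p = 7.08e-05) in TruSeq. Among 12 regulators, 3 fell and 2 rose in TruSeq, 4 fell and 1 rose in Pico, and 3 fell in V4. The median of the regulators was -0.17 in TruSeq and -0.21 in V4, level with all genes (-0.17 and -0.22), and -0.46 in Pico, and the TruSeq counts were close to the shares over all genes. Nr1i3 (CAR), a receptor that drives many Ugt, Sult and Gst genes, had -3.94 ± 0.25 (adjusted p = 1.72e-08) in Pico, -3.32 ± 0.20 (adjusted p = 3.73e-06) in V4 and -4.40 ± 0.17 (adjusted p = 4.83e-07) in TruSeq. Cebpa had -1.16 ± 0.12 (adjusted p = 0.000112) and Hnf4a 0.91 ± 0.084 (adjusted p = 5.09e-05) in TruSeq. Of 9 NRF2 targets outside the families, of which Gclc and Gclm are also in the supply list, 1 fell and 3 rose in TruSeq, 1 fell and 4 rose in Pico, and 1 fell and 2 rose in V4, among them Txnrd1 with 1.16 ± 0.093 (adjusted p = 2.39e-05) in TruSeq. Medians were 0.15 (Pico), 0.076 (V4) and 0.24 (TruSeq) for this list and -0.74, -0.83 and -0.68 for the efflux pumps.

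Markers of other cell types moved with the treatment. Of the neutrophil markers, 5 of 5 rose in Pico, 4 of 5 in V4 and 5 of 6 in TruSeq, and their summed level in TruSeq was 39.9 to 82.1 CPM in the IL-1β mice and 2.19 to 3.48 in the saline mice, with Ly6g not among the genes listed in the Pico and V4 tables. Of 6 Kupffer cell markers 4 fell and 1 rose in TruSeq (summed level 54.3 to 80.1 against 108.8 to 180.6), of 5 endothelial markers 4 fell and 1 rose (58.4 to 80.5 against 135.01 to 154.2), and of 5 stellate cell markers 4 fell (144.1 to 189.7 against 276.4 to 312.4). Hepatocyte markers summed to 64402 to 70963 CPM in the IL-1β mice and 87272 to 105290 in the saline mice in TruSeq, where 3 of 6 fell and 1 rose. Of the pericentral markers 2 of 6 fell in TruSeq (5862 to 6868 against 8765 to 9913), and of the periportal markers 3 of 6 fell and 1 rose (5319 to 6604 against 8573 to 9360.2). Of 5 cholangiocyte markers 1 fell and 2 rose (42.7 to 51.3 against 46.2 to 64.7), and none of 5 red cell markers passed the test (141.1 to 213.3 against 205.6 to 230.3). Their part in the fall of the conjugation genes was not tested.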

How the data were processed

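RNA from the liver of 6 mice was sequenced with 3 kits, which gave 18 libraries. The authors aligned reads to mm9 with GSNAP, removed ribosomal reads, brought the libraries of a kit to the same number of reads by resampling (PORT), and deposited whole-read counts per gene, which for V4 include both strands and for the stranded kits the sense strand. Resampling removes depth differences within a kit, and p-values measure the spread between 3 mice per group. Total counts were lowest in Pico, so counting precision at a given share of counts is lowest there.

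Each kit's whole gene table was fitted with limma-voom (limma 3.58.1, R 4.3.3) using library totals, with no filter beyond 1 count in 1 library and Benjamini-Hochberg adjustment over all genes. A gene rose or fell at an adjusted p of at most 0.05. All adjusted p in the text are from limma-voom unless another tool is named. Log2 fold changes are IL-1β minus saline, ± SE. Kits were compared by an interaction term over the 12 libraries of each pair. Fits were tested on simulated data. Alternatives were TMM factors, edgeR 4.0.16 (quasi-likelihood), DESeq2 1.42.0, a minimum of 10 counts in 3 libraries, other thresholds, leaving out each mouse and a block for the mouse. The mouse number pairs libraries between kits, since RNA of the same mouse entered each, and deviations from the group means correlated at 0.177 to 0.408 (Pico and TruSeq) and 0.155 to 0.384 (V4 and TruSeq) for the same mouse, against -0.325 to -0.0433 and -0.284 to -0.0579 for different mice. Deviations from a group mean cancel over its 3 mice, which pulls the values for different mice below 0. They are thus not evidence apart from the values for the same mouse. Replicate libraries differed by more than sampling noise. Intervals of log2 fold changes and of differences between kits were taken from the SE of the fit, so they include the spread between mice. The exact interval of the Ugt1a8 percent and the floors cover counting error only.

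Genes for which values are given in every mouse are those called in the same direction in all 3 kits, Gsta3, Gstm1, Ugt2b1 and Sult1a1, and the gene of each family with the highest level in saline TruSeq libraries. Ugt2b38, Ugt2b37, Ugt1a1, Ugt1a7c, Ugt1a8, Sult1b1, Sult1c2, Sult1e1 and Gsto2 fall outside that rule, and their values by mouse were added after they were seen. Members, gene lists and tests were chosen with earlier results of these data known. Exon positions and lengths are from the mm9 annotation, and promoters from RefSeq.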

Additional observations from a re-analysis of the deposited data

How the results depend on the processing

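Over 396 alternative log2 fold changes of 12 named genes in 3 kits (36 results), 340 kept direction and side of the threshold, 47 kept direction but lost the call, 2 gained it and 7 changed sign. The changes of sign were in Gstm1 and Sult1a1, which were called in no kit. Gstm1 in V4 was 0.0029 with TMM factors, 0.033 with edgeR and 0.039 with DESeq2, and ranged from -0.34 to 0.065 when 1 mouse was left out. In TruSeq it ranged from -0.33 to 0.048. Sult1a1 ranged from -0.029 to 0.31 in Pico and from -0.026 to 0.32 in TruSeq when 1 mouse was left out. Without 1 mouse, 10 to 13 conjugation genes fell in Pico (10 without ILB_9582 or ILB_9583) and 3 to 12 in V4 (12 without UNT_9576). Over all genes, 1024 to 1632 fell in Pico and 567 to 1504 in V4 (1504 without UNT_9576), against 1951 and 1337 with all mice. In V4 the count was 3 at an adjusted p of at most 0.01 (464 over all genes) and 4 with TMM factors (874 over all genes), of the 9 called. The count that rose in Pico was 1 with edgeR (Ugt2b38). In TruSeq it was 1 at an adjusted p of at most 0.1 and 1 with TMM factors (Sult1e1 in both), and 0 to 1 without 1 mouse (Ugt2b38 without UNT_9574, Sult1e1 without ILB_9579, Gstm3 without ILB_9583). With fewer mice the fits also have fewer degrees of freedom, and the cause of the other changes was not tested.

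With the mouse as a replicate block, 0 conjugation genes differed in response between Pico and TruSeq and 0 between V4 and TruSeq, as without the block, while the count at an unadjusted p under 0.05 went from 1 to 5 and from 0 to 1. Within a kit no block can be set, since each mouse received 1 treatment. The counts of genes that fell in TruSeq stayed within 1.5 times of 23 under every alternative run. Of the calls, 7 of 16 in Pico, 3 of 9 in V4 (Sult1d1, Ugt2a3 and Ugt2b34) and 17 of 23 in TruSeq held under TMM, edgeR and DESeq2 and without each mouse in turn. The calls of Gstt3 and Ugt1a6a in Pico, Gstz1, Ugt2b5 and Ugt2b35 in V4 and Sult1c2 in TruSeq were kept in 1 of the 6 fits that left out a mouse. With at least 10 counts in 3 libraries required, Ugt2b1 and Gsto1 in V4 and Gsta4 in TruSeq were also called lower. Pico had the fewest counts and the Sult2, Sult3 and Sult4 genes had at most 12 in any library, and whether depth set the number of calls was not tested.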
